A study of Mus musculus with 9 samples.

Results

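Sirtuins are enzymes that remove acetyl and other acyl groups from lysines of proteins and consume NAD in doing so, so their activity follows the supply of NAD as well as the amount of enzyme. They are studied in aging because their yeast relative Sir2 affects lifespan and because several members respond to food restriction in rodents, and in liver they act on gluconeogenesis, fatty acid oxidation and the urea cycle. SIRT1, SIRT6 and SIRT7 are mainly nuclear, SIRT2 is mainly cytoplasmic, and SIRT3, SIRT4 and SIRT5 lie in mitochondria. Arrays measure mRNA, and neither enzyme activity nor NAD was measured here.

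The mouse family has 7 genes, *Sirt1* to *Sirt7*. Every probe set whose only gene symbol was one of these was taken, which gave 1 probe set per gene, 7 of the 28815 on the array (21780 of them with 1 gene symbol). Affymetrix Mouse Gene ST arrays measured the liver RNA of 9 mice, with 1 mouse on each and 3 in each group. All mice were females of 15 to 16 months on a C57BL/6J background. WTCR mice were wild type and underwent short-term calorie restriction in steps over several weeks. The study's methods name standard chow for all studies but a CR diet for these mice, with no composition given. *Dgat1*-/-AL mice lacked DGAT1, which joins a fatty acid to diacylglycerol to make triglyceride, in all tissues and ate ad libitum. WTAL mice, the controls of both, were wild type and ate ad libitum. The design asks how far the liver response to calorie restriction resembles that to the loss of DGAT1.

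Log2 *Dgat1* signals of 8.90, 8.76 and 8.56 in WTCR arrays, 6.14, 5.84 and 5.39 in *Dgat1*-/-AL arrays, and 7.86, 5.67 and 8.05 in WTAL arrays checked the labels. The value of 5.67 belongs to the array labelled WTAL replicate 2 and goes against its label, so directions against WTAL rest in part on a doubted array. Where the *Dgat1* probes lie relative to the deleted part of the gene was not checked here. *Dgat1*-/-AL replicate 1 also stood apart, with a limma array weight of 0.355 against 0.802 to 1.63 for the other 8 arrays, and sirtuin values without these arrays are given where they change a call. The 6 hepatocyte markers measured lay at or above the 99.4th percentile of signal. The summed linear signal of 5 sinusoidal endothelial markers ran from 1826 to 2463 in WTCR, 2604 to 3158 in *Dgat1*-/-AL and 3427 to 3895 in WTAL livers, and that of 7 Kupffer cell and macrophage markers from 1966 to 3326, 2299 to 3104 and 2665 to 4007 in the same order. Such a sum follows its strongest markers most. By the rule given below, 1 endothelial marker was lower and 0 higher in WTCR against WTAL. In *Dgat1*-/-AL against WTAL 2 were lower and 1 higher, and in WTCR against *Dgat1*-/-AL 3 were lower and 1 higher. The Kupffer cell and macrophage markers gave 2, 2 and 1 lower and 0 higher in these comparisons. Of all probe sets the rule called 3.81%, 0.76% and 3.93% lower and 4.25%, 0.465% and 4.66% higher in the same order. With so few markers, a count of 1 is little to set beside such a share. Fewer cells of a type and less RNA per cell cannot be told apart in whole liver, and the part of these marker differences in the sirtuin values was not tested.

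No sirtuin passed the rule in any comparison. The rule was a fold over 1.3, a log2 fold change of 0.38, with an unadjusted p under 0.05 in limma. That tool fits each probe set and draws its spread toward a value common to all probe sets. In WTCR against WTAL livers it called 0 of 7 sirtuins, where 8.06% of all probe sets were called. In *Dgat1*-/-AL against WTAL livers it called 0 of 7 (1.23% of all probe sets), and in WTCR against *Dgat1*-/-AL livers 0 of 7 (8.59%). At an unadjusted p under 0.05 with no fold limit, limma counted 2 of 7 (*Sirt3* and *Sirt7*, with 15.1% of all probe sets), 0 of 7 (4.57%) and 3 of 7 (*Sirt1*, *Sirt3* and *Sirt7*, with 15.8%) in the same order of comparisons, and at an adjusted p under 0.05 it counted 0 in each (3.03%, 0.0% and 3.06% of all probe sets). These shares rest on single arrays too: with each array left out, the 872 probe sets behind the first became 118 (without WTAL replicate 3) to 1299 (without *Dgat1*-/-AL replicate 1), and the 883 behind the last became 199 (without WTCR replicate 3) to 1222 (without *Dgat1*-/-AL replicate 1). A lower limit of 1.2-fold gave 2 of 7 higher in WTCR than in WTAL (*Sirt3* and *Sirt7*, 6.62% of all probe sets higher), 0 of 7 higher in *Dgat1*-/-AL than in WTAL (1.1%) and 1 of 7 higher in WTCR than in *Dgat1*-/-AL (*Sirt3*, 7.24%).

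**Figure D1:**
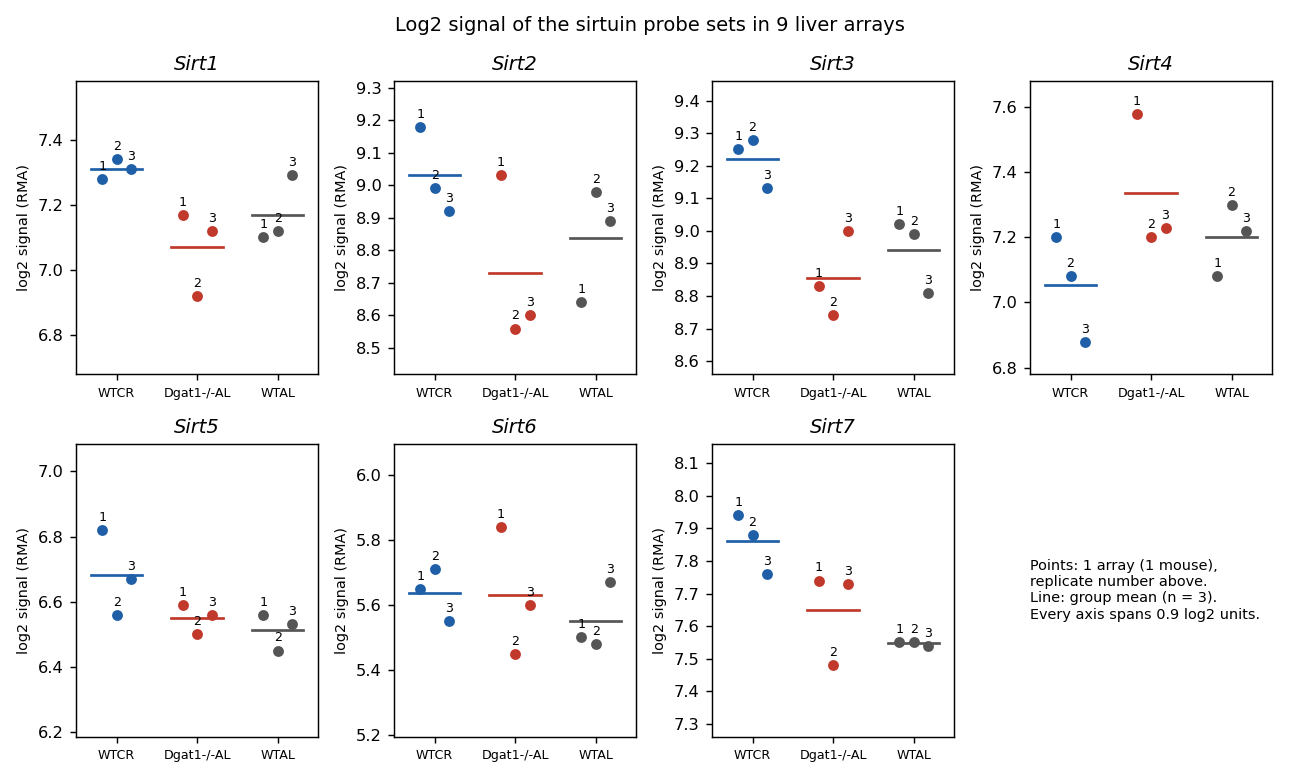
Log2 RMA signal (y axis, spanning 0.9 log2 units in every panel) of each sirtuin probe set in the 9 liver arrays, by group (x axis). Points are single mice with the replicate number, lines are group means (n = 3). All 3 WTCR points of *Sirt3* and *Sirt7* lie above all other points, and the *Sirt7* points of WTAL nearly coincide.

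Among the nuclear members, *Sirt7* encodes the nucleolar enzyme that acts with RNA polymerase I on ribosomal DNA. Its log2 signal was 7.94, 7.88 and 7.76 in WTCR livers, 7.74, 7.48 and 7.73 in *Dgat1*-/-AL livers, and 7.55, 7.55 and 7.54 in WTAL livers. Every WTCR array was above every array of the other groups, by a gap of 0.207 from WTAL and of 0.025 from *Dgat1*-/-AL. The difference of WTCR from WTAL, 0.31 ± 0.08 (SE, n = 3 mice per group), was the highest of the family in that comparison, 1.24-fold with a 95% interval of 1.09 to 1.42, and its adjusted p in limma was 0.102. The WTAL mice were nearly identical, with an SD of 0.006, and 3.79% of all probe sets had an SD at or below that in WTAL. *Dgat1*-/-AL livers differed from WTAL by 0.10 ± 0.08 (adjusted p = 0.972 in limma), and WTCR from *Dgat1*-/-AL by 0.21 ± 0.08 (adjusted p = 0.266 in limma).

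SIRT1 deacetylates transcription regulators such as PGC-1α and FOXO proteins and is the member most studied under food restriction. *Sirt1* had log2 signals of 7.28, 7.34 and 7.31 in WTCR livers, 7.17, 6.92 and 7.12 in *Dgat1*-/-AL livers, and 7.10, 7.12 and 7.29 in WTAL livers. WTCR arrays were close together and above all *Dgat1*-/-AL arrays, while WTAL replicate 3 lay among them. WTCR exceeded *Dgat1*-/-AL by 0.24 ± 0.08 (1.18-fold, adjusted p = 0.198 in limma) and WTAL by 0.14 ± 0.08 (adjusted p = 0.512 in limma). The 95% interval of the difference from WTAL, -0.05 to 0.33, stayed inside the 1.3-fold limit. The *Dgat1*-/-AL value was -0.10 ± 0.08 against WTAL, with an interval of -0.29 to 0.09.

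*Sirt6* encodes a chromatin enzyme that represses glycolytic genes and takes part in DNA repair. Its log2 signals were 5.65, 5.71 and 5.55 in WTCR livers, 5.84, 5.45 and 5.60 in *Dgat1*-/-AL livers, and 5.50, 5.48 and 5.67 in WTAL livers. The 3 groups overlapped throughout. Each of its 3 differences lay between 0.00 and 0.08, and the interval of each, -0.24 to 0.32 over the 3 together, stayed inside the 1.3-fold limit. Its mean log2 signal of 5.61, at the 45.7th percentile, was the lowest of the family. Without detection calls such a signal cannot be told from background, so these intervals bound the signal and not the mRNA. Its direction in *Dgat1*-/-AL against WTAL turned without *Dgat1*-/-AL replicate 1 (-0.03).

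Of the mitochondrial members, *Sirt3* encodes the main deacetylase of the matrix, with enzymes of fatty acid oxidation among its substrates. *Sirt3* had log2 signals of 9.25, 9.28 and 9.13 in WTCR livers, 8.83, 8.74 and 9.0 in *Dgat1*-/-AL livers, and 9.02, 8.99 and 8.81 in WTAL livers. The lowest WTCR array was above the highest of WTAL by 0.112 and of *Dgat1*-/-AL by 0.128, and the ad libitum groups overlapped. WTCR exceeded WTAL by 0.29 ± 0.09 (1.22-fold, 95% interval 1.06 to 1.41, adjusted p = 0.161 in limma). Against *Dgat1*-/-AL the difference was 0.37 ± 0.09 (1.29-fold, 95% interval 1.12 to 1.49, adjusted p = 0.075 in limma), just under the fold limit. It passed the rule without WTCR replicate 3 (0.41) or *Dgat1*-/-AL replicate 3 (0.44), so the count of 0 in that comparison depends on single arrays. *Dgat1*-/-AL differed from WTAL by -0.08 ± 0.09, with an interval of -0.29 to 0.13.

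SIRT4 has weak deacetylase activity and is known as an ADP-ribosyltransferase of glutamate dehydrogenase. *Sirt4* was the only member with a negative difference in both comparisons of WTCR, and neither passed the test. Its log2 signals were 7.20, 7.08 and 6.88 in WTCR livers, 7.58, 7.20 and 7.23 in *Dgat1*-/-AL livers, and 7.08, 7.30 and 7.22 in WTAL livers. Groups touched or overlapped in each comparison. The difference was -0.28 ± 0.12 in WTCR against *Dgat1*-/-AL (adjusted p = 0.317 in limma), -0.14 ± 0.12 in WTCR against WTAL and 0.14 ± 0.12 in *Dgat1*-/-AL against WTAL (adjusted p = 0.692 and 0.972 in limma).

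SIRT5 removes succinyl, malonyl and glutaryl groups and acts on carbamoyl phosphate synthetase, the entry enzyme of the urea cycle. *Sirt5* had log2 signals of 6.82, 6.56 and 6.67 in WTCR livers, 6.59, 6.50 and 6.56 in *Dgat1*-/-AL livers, and 6.56, 6.45 and 6.53 in WTAL livers. WTCR and WTAL arrays were separated by a gap of 0.008 only. WTCR differed from WTAL by 0.17 ± 0.08 (adjusted p = 0.339 in limma) and from *Dgat1*-/-AL by 0.13 ± 0.08 (adjusted p = 0.476 in limma), and *Dgat1*-/-AL from WTAL by 0.04 ± 0.08. All 3 intervals lay inside the 1.3-fold limit.

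*Sirt2*, whose cytoplasmic product deacetylates tubulin, had its widest spread in *Dgat1*-/-AL livers. It had log2 signals of 9.18, 8.99 and 8.92 in WTCR livers, 9.03, 8.56 and 8.60 in *Dgat1*-/-AL livers, and 8.64, 8.98 and 8.89 in WTAL livers. *Dgat1*-/-AL replicate 1 lay among the WTCR arrays, far from the other two of its group, and gave that group an SD of 0.26. WTCR against *Dgat1*-/-AL was 0.30 ± 0.14 (adjusted p = 0.367 in limma) and reached 0.45 without that array (adjusted p = 0.0752 in limma), past the rule. Against WTAL the differences were 0.19 ± 0.14 for WTCR and -0.10 ± 0.14 for *Dgat1*-/-AL, with intervals of -0.13 to 0.52 and -0.43 to 0.22 that do not exclude a 1.3-fold difference.

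**Figure D2:**
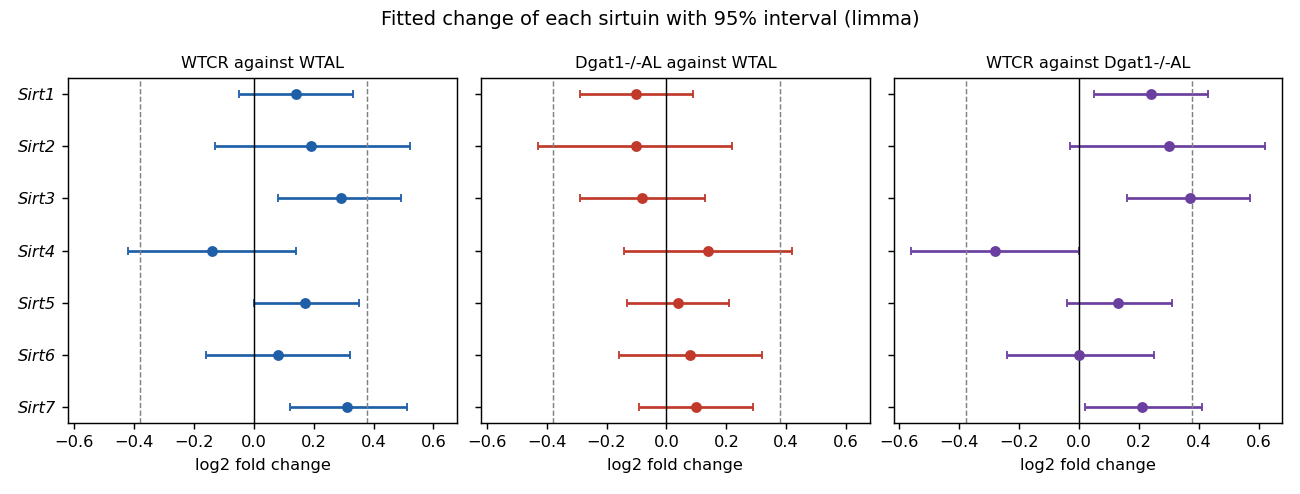
Log2 fold change of each sirtuin (x axis) in the 3 comparisons, with 95% intervals from limma (n = 3 mice per group). Dashed lines mark the 1.3-fold limit of 0.38 either way. All 7 points lie inside the dashed lines in each comparison, with *Sirt3* at 0.37 in WTCR against *Dgat1*-/-AL nearest to one.

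Across the family, 6 of 7 differences were positive in WTCR against WTAL, with a median of 0.17, where the median of all probe sets was 0.002 and 50.8% were positive. The counts were 4 of 7 with a median of 0.04 in *Dgat1*-/-AL against WTAL (49.1% of all probe sets positive) and 6 of 7 with a median of 0.21 in WTCR against *Dgat1*-/-AL (51.8%). The first 2 comparisons share the WTAL arrays, and the first and last share the WTCR arrays, so these counts are not independent. In WTCR all 3 arrays lay above all WTAL arrays for *Sirt3*, *Sirt5* and *Sirt7*, 3 of 7, against 11.2% of all probe sets, and above all *Dgat1*-/-AL arrays for *Sirt1*, *Sirt3* and *Sirt7*, 3 of 7, against 9.05%. With 3 mice per group an exact permutation test of such a gene cannot go below p = 0.1, and each of these gave that value. No sirtuin separated *Dgat1*-/-AL from WTAL, where 7.02% of all probe sets did in either direction. Intervals that stayed inside the 1.3-fold limit on both sides were found for 5 of 7 sirtuins in *Dgat1*-/-AL against WTAL (all but *Sirt2* and *Sirt4*), for 3 of 7 in WTCR against WTAL (*Sirt1*, *Sirt5* and *Sirt6*) and for 2 of 7 in WTCR against *Dgat1*-/-AL (*Sirt5* and *Sirt6*).

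Single arrays moved several members together. *Dgat1*-/-AL replicate 2 was the lowest of its group at 7 of 7 sirtuins and replicate 1 the highest at 6, with mean deviations from the group mean of -0.14 and 0.14. WTCR replicate 3 was the lowest of its group at 5 of 7. Over the 9 arrays the 21 pairs of sirtuins had correlations from -0.50 (*Sirt3* with *Sirt4*) to 0.81 (*Sirt3* with *Sirt7*), a description over arrays that also differ by group. By the same measure, and picked after their values were seen, the single-symbol probe sets most like *Sirt3* were *Ing1* (0.98), *Pgp* (0.96) and *Avpi1* (0.95), and those most like *Sirt7* were *Ptcd1* (0.99), *Ryk* (0.97) and *Mknk2* (0.96). *Sirt3* differed from WTAL in WTCR by 0.22 to 0.33 when each array was left out in turn, and *Sirt7* by 0.27 to 0.36, with a limma p under 0.05 in 9 of 9 fits for both and an adjusted p of 0.139 to 0.399 and of 0.0542 to 0.254.

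**Figure D3:**
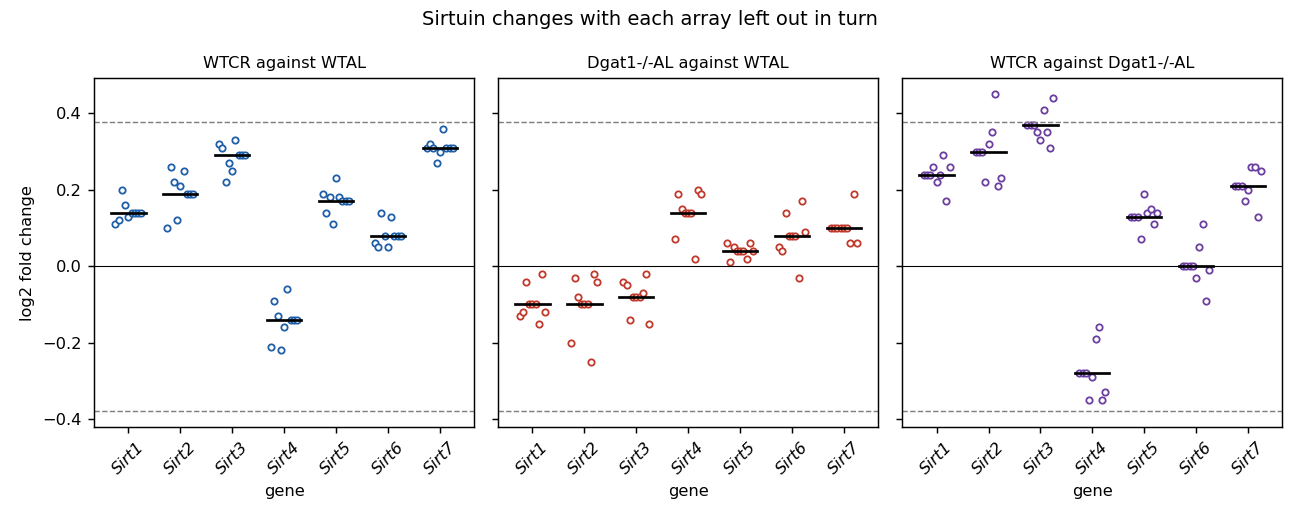
Log2 fold change of each sirtuin (y axis) with each of the 9 arrays left out in turn (open points) and with all arrays (line), by comparison. Dashed lines mark the 1.3-fold limit of 0.38. Points of *Sirt2* (0.45) and *Sirt3* (0.41 and 0.44) pass it in WTCR against *Dgat1*-/-AL only, and those of *Sirt6* fall on both sides of 0 outside the comparison of WTCR with WTAL.

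The start regions of the 3 genes whose WTCR arrays lay above all *Dgat1*-/-AL arrays are shown to set their promoter letters side by side. They are RefSeq sequences on GRCm38.p6, on the minus strand and read 5′ to 3′ toward the start, at chr10:63339036-63339135 for *Sirt1*, chr7:140882310-140882399 for *Sirt3* and chr11:120625015-120625114 for *Sirt7*, and capitals mark matches to the E-box, ETS and NRF1 motifs, with GC boxes left in lower case.
Sirt1: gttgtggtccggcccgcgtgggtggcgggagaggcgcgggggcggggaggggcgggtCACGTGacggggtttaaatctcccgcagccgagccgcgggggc
Sirt3: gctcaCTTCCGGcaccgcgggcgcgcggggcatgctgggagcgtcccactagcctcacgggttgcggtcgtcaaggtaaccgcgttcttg
Sirt7: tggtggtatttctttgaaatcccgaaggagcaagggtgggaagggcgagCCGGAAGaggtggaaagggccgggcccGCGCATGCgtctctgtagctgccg
Motifs were searched on both strands from 250 bases before to 50 after each annotated start, in 9 windows for the 7 genes. The E-box CACGTG was found at *Sirt1* only and in 7.15% of 32851 windows of the same length. The ETS core CCGGAAG, which reads CTTCCGG on the other strand, was found at *Sirt3*, *Sirt6* and *Sirt7* (8.86% of windows), and the NRF1 core GCATGCGC, which reads GCGCATGC on the other strand, at *Sirt6* and *Sirt7* (2.71%). At *Sirt3* the ETS match lay only at the upstream annotated start, the one printed, at -85. That printed stretch overlaps the neighbouring gene *Psmd13*, described below. The window of the other annotated *Sirt3* start held 0 ETS cores, 4 GC boxes and 1 CCAAT. The GC box GGGCGG was found at 6 of 7 genes, all but *Sirt4* (35.7%), and CCAAT at *Sirt2*, *Sirt3* and *Sirt5* (37.4%). A match is a run of letters and says nothing of binding in these livers.

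*Psmd13*, which encodes a subunit of the proteasome lid, starts 84 bases from the upstream start of *Sirt3* and runs the other way. Its log2 signals were 9.27, 9.73 and 9.86 in WTCR livers, 8.85, 9.05 and 9.43 in *Dgat1*-/-AL livers, and 9.36, 9.15 and 8.97 in WTAL livers. WTCR overlapped both other groups, and *Psmd13* passed the rule against WTAL (0.46 ± 0.19, adjusted p = 0.301 in limma) and against *Dgat1*-/-AL (0.51 ± 0.19, adjusted p = 0.234 in limma). Without single arrays these values ran from 0.34 to 0.63 and from 0.38 to 0.68, and the call against WTAL ended without WTCR replicate 2 or 3, *Dgat1*-/-AL replicate 2, the array labelled WTAL replicate 2 or WTAL replicate 3. The call against *Dgat1*-/-AL ended if *Dgat1*-/-AL replicate 1 or 2 was left out, and likewise for WTCR replicate 2 or 3. The other measured neighbours at sirtuin starts were not called in any comparison: *Mafg* at *Sirt7* differed by 0.10 ± 0.08 and *Nfkbib* at *Sirt2* by 0.24 ± 0.14 in WTCR against WTAL (adjusted p = 0.699 and 0.52 in limma).

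Genes that supply or use up NAD were described beside the sirtuins, since NAD is their co-substrate. Of 22 such genes measured, 2 rose and 2 fell in WTCR against WTAL livers, 0 passed the rule in *Dgat1*-/-AL against WTAL livers, and 3 were higher and 5 lower in WTCR than in *Dgat1*-/-AL livers (3 lower without *Dgat1*-/-AL replicate 1). Of all probe sets the rule called 4.25% higher and 3.81% lower in the first comparison, 0.465% and 0.76% in the second, and 4.66% and 3.93% in the third. *Nampt*, which encodes the rate-limiting enzyme of NAD salvage from nicotinamide, had log2 signals of 10.02, 9.73 and 9.85 in WTCR livers, 8.28, 8.92 and 8.72 in *Dgat1*-/-AL livers, and 8.99, 8.84 and 9.01 in WTAL livers. No WTCR array overlapped another group, and the rise of 0.92 ± 0.15 against WTAL (adjusted p = 0.0208 in limma) and of 1.22 ± 0.15 against *Dgat1*-/-AL (adjusted p = 0.00894 in limma) held without any single array. The difference of *Dgat1*-/-AL from WTAL was -0.30 ± 0.15 (adjusted p = 0.972 in limma).

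*Nadsyn1*, which encodes the last enzyme of NAD synthesis from nicotinic acid and tryptophan, was higher in WTCR by 0.53 ± 0.19 against WTAL, a call that ended without WTCR replicate 1 or the array labelled WTAL replicate 2, so that 1 gene rose in either case. Between WTCR and *Dgat1*-/-AL, *Nadsyn1* was higher by 0.61 ± 0.19 and held without any single array, while *Naprt*, which encodes the first enzyme of NAD synthesis from nicotinic acid, was higher by 0.63 ± 0.22 and was not called without WTCR replicate 1 or *Dgat1*-/-AL replicate 2 or 3. *Nudt12*, whose product cleaves NAD(H), was lower there by a log2 difference of -0.57 ± 0.15, also without any single array. *Parp9* and *Parp14*, members of the ADP-ribosyltransferase family that interferon induces, fell in WTCR against WTAL, with log2 fold changes of -0.61 ± 0.09 (adjusted p = 0.0158 in limma) and -0.77 ± 0.17 (adjusted p = 0.0519 in limma). Against *Dgat1*-/-AL the same genes gave -0.55 ± 0.09 and -0.84 ± 0.17, both called without any single array too. *Parp9* had log2 signals of 7.75, 7.61 and 7.95 in WTCR livers, 8.25, 8.40 and 8.30 in *Dgat1*-/-AL livers, and 8.39, 8.31 and 8.44 in WTAL livers, with WTCR below every other array. *Parp1*, which encodes the main consumer of NAD in DNA repair, gave -0.19 ± 0.11 and did not pass the rule. Markers of B cells were also lower in WTCR against WTAL, with 3 of 3 past the rule, beside 3.81% of all probe sets lower. Against *Dgat1*-/-AL 0 of 3 were lower by the rule. Their summed linear signals were 67 to 78 in WTCR, 81 to 90 in *Dgat1*-/-AL and 99 to 116 in WTAL livers. These signals were low, at a median percentile of 18.1, and the part of B cells in the *Parp9* and *Parp14* values was not tested.

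**Figure D4:**
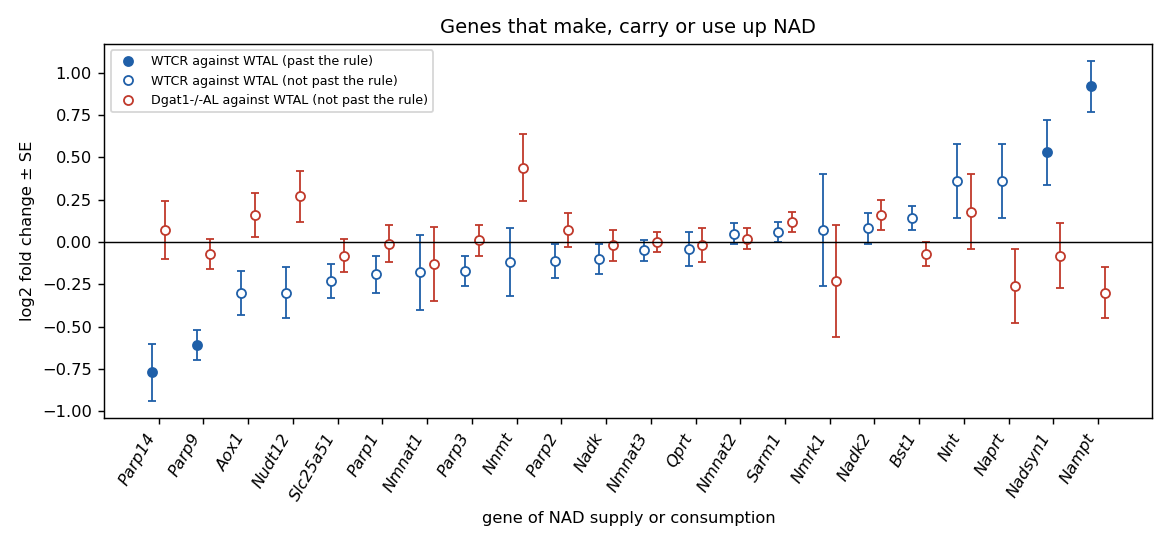
Log2 fold change ± SE (y axis, limma, n = 3 mice per group) of 22 genes of NAD supply and consumption (x axis), in WTCR against WTAL (blue) and in *Dgat1*-/-AL against WTAL (red), ordered by the WTCR value. Filled points passed the rule: *Nampt* (0.92) and *Nadsyn1* (0.53) rose and *Parp9* (-0.61) and *Parp14* (-0.77) fell in WTCR, and no red point is filled.

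Nuclear substrates of SIRT1 are mostly transcription regulators. Of 20 measured, 5 rose and 1 fell in WTCR against WTAL livers (median difference 0.16), beside 4.25% and 3.81% of all probe sets. In *Dgat1*-/-AL against WTAL livers 1 fell, beside 0.76% of all probe sets. In WTCR 5 were higher and 2 lower than in *Dgat1*-/-AL livers, beside 4.66% and 3.93% of all probe sets. The last counts were 3 higher without *Dgat1*-/-AL replicate 2 or 3, and 0 to 1 lower without WTCR replicate 1 or 3, any *Dgat1*-/-AL array, or WTAL replicate 1 or 3. The count lower in WTCR against WTAL was 2 without WTCR replicate 1 or 2 or the array labelled WTAL replicate 2. *Ppargc1a*, which encodes the coactivator PGC-1α, had log2 signals at one probe set of 7.65, 7.21 and 7.50 in WTCR livers, 6.81, 6.35 and 6.69 in *Dgat1*-/-AL livers, and 6.65, 6.52 and 6.16 in WTAL livers. WTCR lay above every other array and rose by 1.01 ± 0.17 against WTAL (adjusted p = 0.0216 in limma), and the other probe set of the gene rose by 0.84 ± 0.21. The clock gene *Per2* rose by 0.65 ± 0.14 (adjusted p = 0.0455 in limma) and *Crtc2*, a coactivator of gluconeogenic genes, by 0.85 ± 0.25 (adjusted p = 0.128 in limma). *Nr1h3*, which encodes the oxysterol receptor LXRα, fell by 0.55 on the log2 scale (SE 0.12). These calls of *Ppargc1a*, *Per2*, *Crtc2* and *Nr1h3* against WTAL held without any single array, and those of the other 2 genes that rose, the nuclear receptors *Nr1h4* (0.42) and *Hnf4a* (0.40), did not, *Hnf4a* ending without WTAL replicate 1 and *Nr1h4* without WTCR replicate 1 or 3, WTAL replicate 3 or the array labelled WTAL replicate 2. Against *Dgat1*-/-AL, WTCR was higher by 0.79 ± 0.14 at *Per2* and by 0.84 ± 0.17 at the first *Ppargc1a* probe set, which held, and by 0.70 ± 0.25 at *Crtc2*, a call lost without *Dgat1*-/-AL replicate 2 or 3 and also without WTCR replicate 1 or 2. In *Dgat1*-/-AL livers the 1 that fell was *Acss2*, an acetyl-CoA synthetase that SIRT1 activates (-0.65 ± 0.25, adjusted p = 0.972 in limma), and its call ended without *Dgat1*-/-AL replicate 1 or 3 or WTAL replicate 3. Of 18 genes reported to regulate SIRT1, 1 rose in WTCR against WTAL, 5.26% of their probe sets beside 4.25% of all. It was *Prkaa2*, a catalytic subunit of AMP kinase (0.46 ± 0.15), and its call ended without WTCR replicate 1 or 3. None fell in that comparison, but 1 did with the replicate block, 2 without WTCR replicate 2 or 3 and 1 without the array labelled WTAL replicate 2. In *Dgat1*-/-AL against WTAL 0 passed. WTCR against *Dgat1*-/-AL gave 1 higher and 2 lower in that list, *Clock* and *Arntl* of the circadian clock (-0.57 and -1.10). With the replicate block 1 rather than 2 was lower in this list and in the list of SIRT1 substrates, with only the groups compared 0 were higher and 0 lower in this list, and the same holds for the methods' t-test. Leaving out any array but WTCR replicate 2 and the array labelled WTAL replicate 2 ended the *Arntl* call. The *Clock* call ended without WTCR replicate 1 or *Dgat1*-/-AL replicate 2 or 3, and that of *Prkaa2* (0.40), the 1 higher, ended without those or WTCR replicate 3.

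Mitochondrial substrates of SIRT3 gave 6 higher and 0 lower of 22 in WTCR against WTAL livers (median difference 0.23), beside 4.25% and 3.81% of all probe sets. They gave 0 in *Dgat1*-/-AL against WTAL (0.465% and 0.76% of all), and 6 higher and 1 lower in WTCR against *Dgat1*-/-AL (4.66% and 3.93%). *Pdha1*, a subunit of pyruvate dehydrogenase, rose by 0.57 ± 0.11 (adjusted p = 0.034 in limma), with log2 signals of 10.75, 10.45 and 10.79 in WTCR livers, 10.20, 10.23 and 10.41 in *Dgat1*-/-AL livers, and 9.98, 10.08 and 10.23 in WTAL livers. *Atp5o*, a subunit of ATP synthase, rose by 0.44 ± 0.09 (adjusted p = 0.0419 in limma) and *Idh2*, the mitochondrial isocitrate dehydrogenase that uses NADP, by 0.55 ± 0.16 (adjusted p = 0.127 in limma), and these 3 calls held without any single array. The other 3 did not: *Acads*, a dehydrogenase of short-chain fatty acids (0.45 ± 0.13), was not called without WTAL replicate 1, *Ppif*, which encodes cyclophilin D (0.44 ± 0.12), without WTCR replicate 3, and *Pdhb*, another subunit of pyruvate dehydrogenase (0.40 ± 0.13), without WTCR replicate 3 or WTAL replicate 1 or 3. Against *Dgat1*-/-AL, *Ppif* (0.53 ± 0.12) and *Acadl*, a dehydrogenase of long-chain fatty acids (0.51 ± 0.09, adjusted p = 0.0223 in limma), were higher without any single array, while *Pdhb* (0.45) ended without WTCR replicate 3 or *Dgat1*-/-AL replicate 1. The 1 lower was *Otc* of the urea cycle (-0.45 ± 0.17), not called without *Dgat1*-/-AL replicate 2 or 3 or without WTCR replicate 2 or 3. *Sod2*, the superoxide dismutase of the matrix, differed by 0.29 ± 0.08 and did not pass the rule. The count against *Dgat1*-/-AL was 3 higher without WTCR replicate 3 or *Dgat1*-/-AL replicate 2, and 0 lower without either of these or WTCR replicate 2. Of 17 substrates of SIRT4 and SIRT5, 1 rose in WTCR against WTAL, *Idh2* again, 5.56% of their probe sets beside 4.25% of all. In *Dgat1*-/-AL against WTAL 0 passed. In WTCR 2, *Idh2* (0.43) and *Dlat* of the pyruvate dehydrogenase complex (0.38), were higher than in *Dgat1*-/-AL. That count was 0 to 1 when *Dgat1*-/-AL replicate 1 or 2, or else WTCR replicate 1 or 3, was left out. In WTCR against WTAL 2 rose without WTCR replicate 2 or 3, WTAL replicate 1 or the array labelled WTAL replicate 2. *Cps1*, the carbamoyl phosphate synthetase on which SIRT5 acts, differed by 0.37 ± 0.10 in WTCR from WTAL, just under the fold limit.

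Genes tied to the nuclear members *Sirt6* and *Sirt7* were counted likewise, beside the same shares of all probe sets. These were 4.25% higher and 3.81% lower in WTCR against WTAL and 0.465% and 0.76% in *Dgat1*-/-AL against WTAL. In WTCR against *Dgat1*-/-AL they were 4.66% and 3.93%. Of 22 glycolysis and repair genes tied to SIRT6, 2 rose and 2 fell in WTCR against WTAL livers, 0 passed in *Dgat1*-/-AL against WTAL, and 4 were higher and 1 lower in WTCR than in *Dgat1*-/-AL (2 lower without WTCR replicate 1 or *Dgat1*-/-AL replicate 3). Those that rose were the glycolytic genes *Aldoc* (1.26 ± 0.22, adjusted p = 0.0246 in limma) and *Tpi1* (0.61 ± 0.10, adjusted p = 0.0178 in limma), whose calls held without any single array. The 2 that fell were *Igf1* (-0.43), which encodes a growth factor, and *Pdk4* (-0.72), which encodes an inhibitor of pyruvate dehydrogenase, and neither was called without WTAL replicate 1. The *Igf1* call also ended without WTCR replicate 3, and that of *Pdk4* without WTCR replicate 2 or WTAL replicate 3. Against *Dgat1*-/-AL the calls of *Aldoc* (1.11 ± 0.22), *Tpi1* (0.72 ± 0.10) and *Pdk4* (-0.82 ± 0.24) held without any single array, and that of *Jun*, a transcription factor gene (0.54 ± 0.19), ended without WTCR replicate 2 or *Dgat1*-/-AL replicate 2. Of 20 genes of ribosomal DNA transcription and stress tied to SIRT7, 5 rose in WTCR against WTAL (median difference 0.15), but only 1 did without WTAL replicate 1 and 3 without WTCR replicate 3. The 1 that held throughout was *Ncl*, which encodes nucleolin (0.49 ± 0.10, adjusted p = 0.0328 in limma). *Nop56*, a nucleolar protein gene, rose by 0.50 ± 0.13, *Ddb1* of DNA repair by 0.42 ± 0.14, *Npm1*, which encodes nucleophosmin, by 0.41 ± 0.09, and *Rrn3*, an initiation factor of RNA polymerase I, by 0.38 ± 0.12, and each was not called without WTAL replicate 1. In the same list 0 passed in *Dgat1*-/-AL against WTAL and 4 were higher in WTCR than in *Dgat1*-/-AL, 8 without *Dgat1*-/-AL replicate 1, with *Nop56* (0.79 ± 0.13, adjusted p = 0.0181 in limma) and the transcription factor gene *Nrf1* (0.50 ± 0.10, adjusted p = 0.0364 in limma) holding without any single array. *Polr1c*, a subunit of RNA polymerases I and III (0.44 ± 0.08), was not called without *Dgat1*-/-AL replicate 1, and *Rrn3* (0.39 ± 0.12) without WTCR replicate 3 or *Dgat1*-/-AL replicate 2. As a comparison, of the 11 zinc-dependent histone deacetylases, which need no NAD, 1 fell in WTCR against WTAL (*Hdac1*, -0.40 ± 0.10 and -0.41 ± 0.11 at its probe sets, a call that ended without WTCR replicate 2 or WTAL replicate 1), and 0 passed in the other comparisons, except *Hdac3*, which in WTCR against *Dgat1*-/-AL differed by -0.34 ± 0.15 with all arrays and passed as lower without WTCR replicate 1 (-0.48). In *Dgat1*-/-AL against WTAL each list's count was at most 1 in either direction with any single array left out. The medians of these lists were not tested, and they are read beside a median of 0.002 over all probe sets in WTCR against WTAL.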

How the data were processed

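Liver RNA of 9 mice was hybridised to Affymetrix Mouse Gene ST arrays. The deposited values are log2 signals computed by the authors with RMA (background correction, quantile normalization and probe summary), with all arrays in 1 table and array medians of 5.80 to 5.84. No detection calls were used, so a low signal cannot be told from background, and 3 arrays per group limit the precision. Groups came from the sample labels. Gene names came from the platform annotation: 21780 of 28815 probe sets carried 1 symbol, 1605 several and 5430 none listed.

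limma 3.58.1 (R 4.3.3) fitted 1 mean per group and 1 spread over all arrays to every probe set, two-sided, with Benjamini-Hochberg adjustment over all 28815. Calls needed both a change of more than 1.3-fold and p under 0.05 before adjustment. The main fit was also checked on simulated data with known changes. The members and gene lists were chosen with earlier results of these data known. Named genes were all sirtuins, *Dgat1* and, per list and comparison, up to 4 of the largest changes past the rule. *Nudt12*, *Nr1h4*, *Hnf4a*, *Atp5o*, *Hdac3*, *Mafg*, *Nfkbib*, *Parp1*, *Sod2*, *Cps1*, *Psmd13* and the genes most like *Sirt3* and *Sirt7* were added after their values were seen.

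Replicate numbers were checked for pairing. Deviations of same-numbered arrays correlated at 0.477, 0.252 and 0.211 between WTCR and *Dgat1*-/-AL, at -0.233, 0.0454 and -0.0749 between WTCR and WTAL, and at -0.325, -0.0857 and -0.229 between *Dgat1*-/-AL and WTAL. Only the first pair of groups was positive at every number. Differently numbered arrays were not compared, so these values cannot tell whether the numbers pair the arrays. Alternatives were a replicate block, only the groups compared, an intensity trend, array weights, array medians subtracted, no probe sets below the 25th percentile of signal, an ordinary t-test, an adjusted p, a fold over 1.2, and each array left out. The ordinary t-test takes each probe set alone, whereas the study's methods name p-values from limma. The fit without both doubted arrays (the array labelled WTAL replicate 2 and *Dgat1*-/-AL replicate 1) was chosen after seeing the data.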

Additional observations from a re-analysis of the deposited data

How the results depend on the processing

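Over 399 recomputed values for the sirtuins, 385 kept their direction and their side of the threshold. Many of these could not move, because several alternatives leave the group differences unchanged. Among the values with single arrays left out, 181 kept both and 5 turned direction. At a fold over 1.2, 2 sirtuins were higher in WTCR than in WTAL (*Sirt3* and *Sirt7*) and 1 was higher in WTCR than in *Dgat1*-/-AL (*Sirt3*), against 0 in each at 1.3. That second count was 1 (*Sirt2*, 0.45) without both doubted arrays, and 0 to 1 with each array left out. All other counts, in either direction, were 0 under every alternative, the replicate block and the ordinary t-test included. Directions turned at *Sirt5* (-0.01) and *Sirt6* (-0.06) in *Dgat1*-/-AL against WTAL without both doubted arrays, and with single arrays left out *Sirt6* ran from -0.03 to 0.17 in that comparison and from -0.09 to 0.11 in WTCR against *Dgat1*-/-AL. The cause of these changes was not tested.

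In WTCR against WTAL the replicate block gave an adjusted p in limma of 0.156 at *Sirt7* and of 0.255 at *Sirt3*. Their differences of 0.31 and 0.29 stay the same by design, since each replicate number occurs once in every group. Over all probe sets the block left 363 rather than 872 at an adjusted p under 0.05 in WTCR against WTAL and 461 rather than 883 in WTCR against *Dgat1*-/-AL, while the calls by the rule were 1222 higher and 1101 lower rather than 1224 and 1098, and 1348 and 1132 rather than 1344 and 1131. The ordinary t-test, which is not the limma test that the study's methods name, called 1034 higher and 849 lower in WTCR against WTAL. It called 56 and 113 in *Dgat1*-/-AL against WTAL and 895 and 731 in WTCR against *Dgat1*-/-AL. After Benjamini-Hochberg adjustment it left 2, 0 and 0 in that order. Without both doubted arrays 272 were higher and 385 lower in *Dgat1*-/-AL against WTAL, rather than 134 and 219. Single arrays moved this count too: it was 309 and 354 without *Dgat1*-/-AL replicate 2 and 250 and 301 without *Dgat1*-/-AL replicate 1. It was 151 and 368 without the array labelled WTAL replicate 2. The 1.23% given as background there thus depends on single arrays of both groups.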
